A study of Mus musculus with 868 samples.

Results

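The genes followed here are 9 genes of dopamine signalling in the striatum: Drd1, Drd2, Ppp1r1b, Penk, Pdyn, Tac1, Adora2a, Pde10a and Rgs9. They were taken by symbol and by no rule on measured values, though earlier results of these data were known. All 9 were found among the 24421 gene symbols counted in each tissue. Reads at the 3′ ends of mRNA were counted in 868 libraries, made from 24 tissues and 18 treatments of C57BL/6N mice. A tissue had 2 libraries of each treatment, and 4 of asenapine (brain) and of sofosbuvir (jejunum). The labels name whole tissues and no region of the brain, so "brain" stands for whatever part was taken.

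All groups are of the same strain and carry no named allele. Drugs were compared only inside 3 library sets. No treatment is shared between sets, so a difference between sets cannot be told apart from treatment. The sets come from earlier expression values of these libraries and not from the labels. Set A held APAP (2 hours) and Sofosbuvir, with Sucrose (5%) and Untreated as controls. Set B held the antipsychotics Asenapine, Lurasidone and Olanzapine with the bone drugs Alendronate and Risedronate (bisphosphonates), and no control group. Set C held the antipsychotics Aripiprazole and Clozapine, then Cisplatin, Dox (2 mg per mL), EMPA (oral, 2 weeks), Lenalidomide, Repatha and Teriparatide, with CMCTween (0.5% CMC and 0.25% Tween80) as its control. No other dose, time or vehicle is given, nor whether the libraries of a group came from separate mice. The p-values therefore measure only the spread between these libraries, which may be technical.

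As background, most neurons of the striatum are projection neurons of 2 kinds. Those of the direct pathway carry the D1 dopamine receptor (Drd1) and make dynorphin (Pdyn) and substance P (Tac1). Those of the indirect pathway carry the D2 dopamine receptor (Drd2) and the adenosine A2a receptor (Adora2a), and make enkephalin (Penk). Both kinds hold DARPP-32 (Ppp1r1b), a phosphatase inhibitor that protein kinase A switches on, the phosphodiesterase PDE10A (Pde10a), which breaks down cyclic nucleotides, and RGS9 (Rgs9), which ends G protein signals. Antipsychotics block the D2 receptor or, for aripiprazole, act on it as a partial agonist. In the pituitary, dopamine acts through the D2 receptor on the cells that secrete prolactin.

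The libraries held 451154 to 12811780 counts each, with a median of 877592.5, and those of brain 670011 to 4434217 in 38 libraries. The Untreated libraries were the deepest, with 2875950 to 12811780 counts. Hnrnpl, an RNA-binding protein gene, lay at 109 to 214 CPM in the set A brain libraries, 31.8 to 63.0 CPM in set B and 27.1 to 55.1 CPM in set C. It set apart set A only, and sets B and C overlapped. In the 36 pituitary libraries the prolactin gene Prl lay at 8325 to 26403 CPM and the growth hormone gene Gh at 34658 to 101903 CPM. Pomc, made in the anterior and intermediate lobes, ranged more widely, from 2104 to 57884 CPM. No pair of libraries of a group differed by as little as sampling noise, with a chi-square of at least 1.12 per degree of freedom over 442 pairs.

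Drd2, the receptor that links these genes to the antipsychotics, was almost uncounted. Over all 868 libraries it had 46 counts of 1018233546, in 34 libraries, and never more than 4 counts in a library. The 38 brain libraries held 2 Drd2 counts, 1 in an aripiprazole library and 1 in a teriparatide library, or 0.0386 CPM over the pooled brain counts. The 36 pituitary libraries held 21 counts in 15 libraries, at up to 5.01 CPM, and the 36 testis libraries also held 21 counts in 15 libraries. AdrenalG and eye had 1 count each, and the other 19 tissues had 0. A count of 0 still allows up to 0.0901 CPM over the pooled spleen libraries, the shallowest of these tissues, from counting error alone. Drd2 passed the filter on low counts in no tissue and was not tested. The gene lies at chr9:49340627-49408177 on the plus strand (mm10, GENCODE M21), where no other annotated gene overlaps it. Its level in these counts is therefore no measure of the indirect pathway, for which Penk and Adora2a stand below.

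Of the receptors, Drd1 was high in 2 tissues of Untreated mice. It had 30.0 and 27.7 CPM in brain, against 70.8 and 63.1 CPM in eye and 5.19 and 4.94 CPM in WAT. The libraries of these 3 tissues did not overlap, and the other 21 tissues had means under 2 CPM, with 6 of them at 0. Adora2a was spread over more tissues. Brain had 21.6 CPM in both libraries, against 30.1 and 33.3 CPM in spleen, 24.1 and 20.4 CPM in WAT and 12.7 and 14.9 CPM in thymus. Brain lay within the WAT range, below spleen and above thymus. From thymus down, heart, Aorta, jejunum and BM formed a run in which each tissue overlapped the next.

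Of the peptide genes, Pdyn had 17.6 CPM in both Untreated brain libraries, against 16.2 and 18.6 CPM in pituitary and 12.5 and 14.5 CPM in eye. Brain and pituitary overlapped, eye lay below both, and the other 21 tissues had means under 2 CPM. Tac1 had 11.5 and 14.4 CPM in brain, against 18.6 and 12.9 CPM in ileum, 14.8 and 12.96 CPM in colon and 13.1 and 10.99 CPM in jejunum. These 4 tissues overlapped each other in their order, and eye (7.55 and 7.33 CPM) lay below them. Tac1 is made by neurons of the gut wall as well as by those of the brain. Penk had 111 and 100.03 CPM in brain, against 92.5 and 109 CPM in testis, 72.9 and 93.5 CPM in eye, 84.4 and 63.3 CPM in skin and 76.2 and 46.9 CPM in WAT. Each of these 5 tissues overlapped the next, and AdrenalG (30.5 and 35.1 CPM) followed below them. No tissue had Penk at 0, so this peptide gene was the least restricted of the 3.

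Of the signalling genes, Ppp1r1b was higher in ileum, jejunum and colon than in brain, and lower in stomach (44.5 and 45.1 CPM). It had 121 and 116 CPM in Untreated brain, against 316 and 343 CPM in ileum, 324 and 314 CPM in jejunum, 318 and 304 CPM in ThyroidG and 293 and 316 CPM in colon. Brain came after these 4 of the 24 tissues, above ParotidG (111 and 89.9 CPM) and kidney (57.2 and 69.0 CPM). Pde10a had 18.7 and 20.4 CPM in brain, against 20.5 and 17.4 CPM in pituitary, 14.2 and 7.69 CPM in eye, 11.4 and 8.70 CPM in testis and 11.9 and 7.53 CPM in AdrenalG. Rgs9 had 30.9 and 24.04 CPM in brain, against 455 and 402 CPM in eye and 129 and 124 CPM in pituitary. Eye, whose photoreceptors use an RGS9 isoform to end the light response, stood clear of pituitary, which stood clear of brain, while lung (26.7 and 18.2 CPM) overlapped brain.

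**Figure D1:**
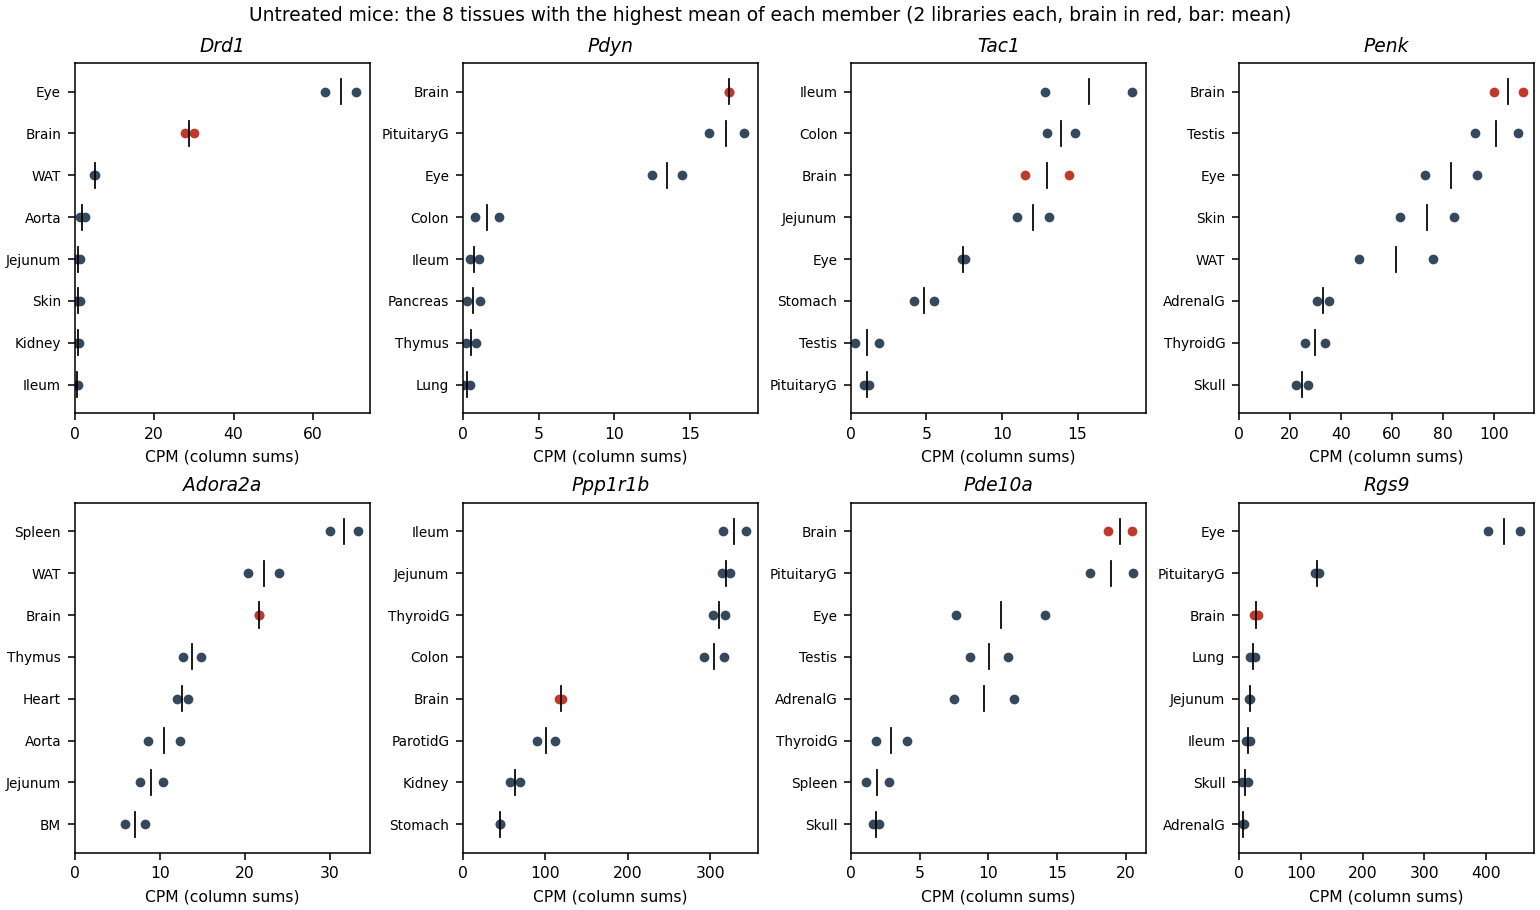
Level of 8 members in Untreated mice, in CPM from column sums, for the 8 tissues with the highest mean of each; points are the 2 libraries, bars their mean, and brain is red. Penk, Pdyn and Pde10a have their highest mean in brain, while eye leads for Drd1 and Rgs9, ileum for Tac1 and Ppp1r1b, and spleen for Adora2a.

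RefSeq promoter sequences (GRCm38.p6, 250 bases before to 50 after the start) were available for Drd1, Drd2, Pdyn, Tac1, Pde10a and Rgs9, 9 promoters in all. They were searched on both strands for the cyclic AMP response element TGACGTCA, for its core TGACG, and for TATAAA. The full element was in 1.79% of all 32851 promoters of that length and in 0 of the 9. The core, which also lies inside the full element, was in 20.8% of all promoters and in 1 of the 9, that of Tac1. TATAAA was in 13.6% of all promoters and in 1 of the 9, that of Rgs9. The 2 promoters with a match are shown because these genes lead in different tissues, gut and brain for Tac1 and eye for Rgs9. Capitals mark the matches, with the Tac1 core read on the opposite strand (CGTCA), and the positions are chr6:7554811-7555110 on the plus strand and chr11:109298132-109298431 on the minus strand.
Tac1: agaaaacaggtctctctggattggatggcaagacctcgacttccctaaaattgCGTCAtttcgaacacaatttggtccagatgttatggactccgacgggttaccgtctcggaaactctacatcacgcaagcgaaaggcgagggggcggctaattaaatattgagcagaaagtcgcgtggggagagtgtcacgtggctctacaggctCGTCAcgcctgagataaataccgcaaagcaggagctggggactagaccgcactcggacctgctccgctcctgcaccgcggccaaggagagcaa
Rgs9: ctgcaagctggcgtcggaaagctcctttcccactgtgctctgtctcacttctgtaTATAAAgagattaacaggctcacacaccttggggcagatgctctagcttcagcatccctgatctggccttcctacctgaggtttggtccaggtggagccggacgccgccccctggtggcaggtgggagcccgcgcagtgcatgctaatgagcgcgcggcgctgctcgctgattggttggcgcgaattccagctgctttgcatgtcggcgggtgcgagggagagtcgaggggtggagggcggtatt
A match describes these letters and is not evidence that a factor binds there.

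Brain was then tested against each of the 23 other tissues in the Untreated libraries (edgeR quasi-likelihood F test, TMM scaling, Benjamini-Hochberg adjusted p under 0.05). Since the genes were named for a brain region, their being high in brain is a description. Of 184 member and tissue pairs, brain was higher in 173 and lower in 5. Over all genes 52.2% of the pairs were called, 26.2% with brain higher. Brain was higher than all 23 tissues for Penk, Pdyn and Pde10a. It was not shown to differ from eye for Drd1, from ileum for Tac1, from spleen and WAT for Adora2a, and from ParotidG and ThyroidG for Ppp1r1b. Brain was lower than colon, ileum and jejunum for Ppp1r1b (log2 difference from ileum -0.59 ± 0.18 SE, adjusted p = 0.0052). It was lower than eye (-3.09 ± 0.29, adjusted p = 7.5e-11) and pituitary (-1.27 ± 0.28, adjusted p = 0.00038) for Rgs9.

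These calls depend on the scaling for neighbouring tissues. TMM moved the brain differences of the members upward from those of column sums in 20 of the 23 tissues, by a median of 0.80 on the log2 scale. With column sums, 163 pairs were higher in brain, all among the 173, and 7 were lower. Pdyn and Pde10a were then not shown to differ between brain and pituitary (0.02, adjusted p = 1, and 0.04, adjusted p = 1, against 0.96 and 0.97 with TMM), nor Penk between brain and testis (0.07, adjusted p = 0.82, against 0.57). The other 7 calls lost were those against eye for Penk (0.34, adjusted p = 0.17) and Pdyn (0.38, adjusted p = 0.42), thymus for Adora2a (0.64, adjusted p = 0.065), jejunum (0.65, adjusted p = 0.094) and lung (0.29, adjusted p = 0.43) for Rgs9, and colon (-0.10, adjusted p = 0.85) and jejunum (0.10, adjusted p = 0.84) for Tac1. The Tac1 difference from colon thus changed sign. Drd1 in brain was lower than in eye with column sums (-1.21, adjusted p = 0.0003) and Ppp1r1b in brain lower than in ThyroidG (-1.39, adjusted p = 1.5e-08). The CPM values above are from column sums, so they follow the second reading. The order of means also differed between control groups. In Sucrose mice pituitary led for Pdyn (25.2 CPM, brain 14.8), AdrenalG for Pde10a (42.6, brain 14.8) and testis for Penk (93.6, brain 88.3). With CMCTween pituitary led for Pdyn (13.1 CPM, brain 8.95), and brain for Pde10a (76.7) and Penk (112).

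In brain, 3 of the 8 counted members stood apart in set A. Tac1 lay at 7.75 to 23.4 CPM (median 15.1) in the 8 set A libraries, 25.1 to 69.6 CPM (median 40.1) in set B and 24.3 to 46.9 CPM (median 35.1) in set C. Pde10a lay at 10.5 to 25.5 CPM (median 17.4), 33.3 to 67.2 CPM (median 42.1) and 41.6 to 81.4 CPM (median 68.5). Set A did not overlap sets B and C for either gene. Adora2a went the other way, at 16.6 to 36.0 CPM (median 22.96) in set A, 3.96 to 15.8 CPM in set B and 4.94 to 15.0 CPM in set C, again with set A apart. Drd1, Penk, Pdyn, Ppp1r1b and Rgs9 overlapped between the sets. Treatment and set cannot be told apart in these gaps, so no drug is read against a group of another set.

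**Figure D2:**
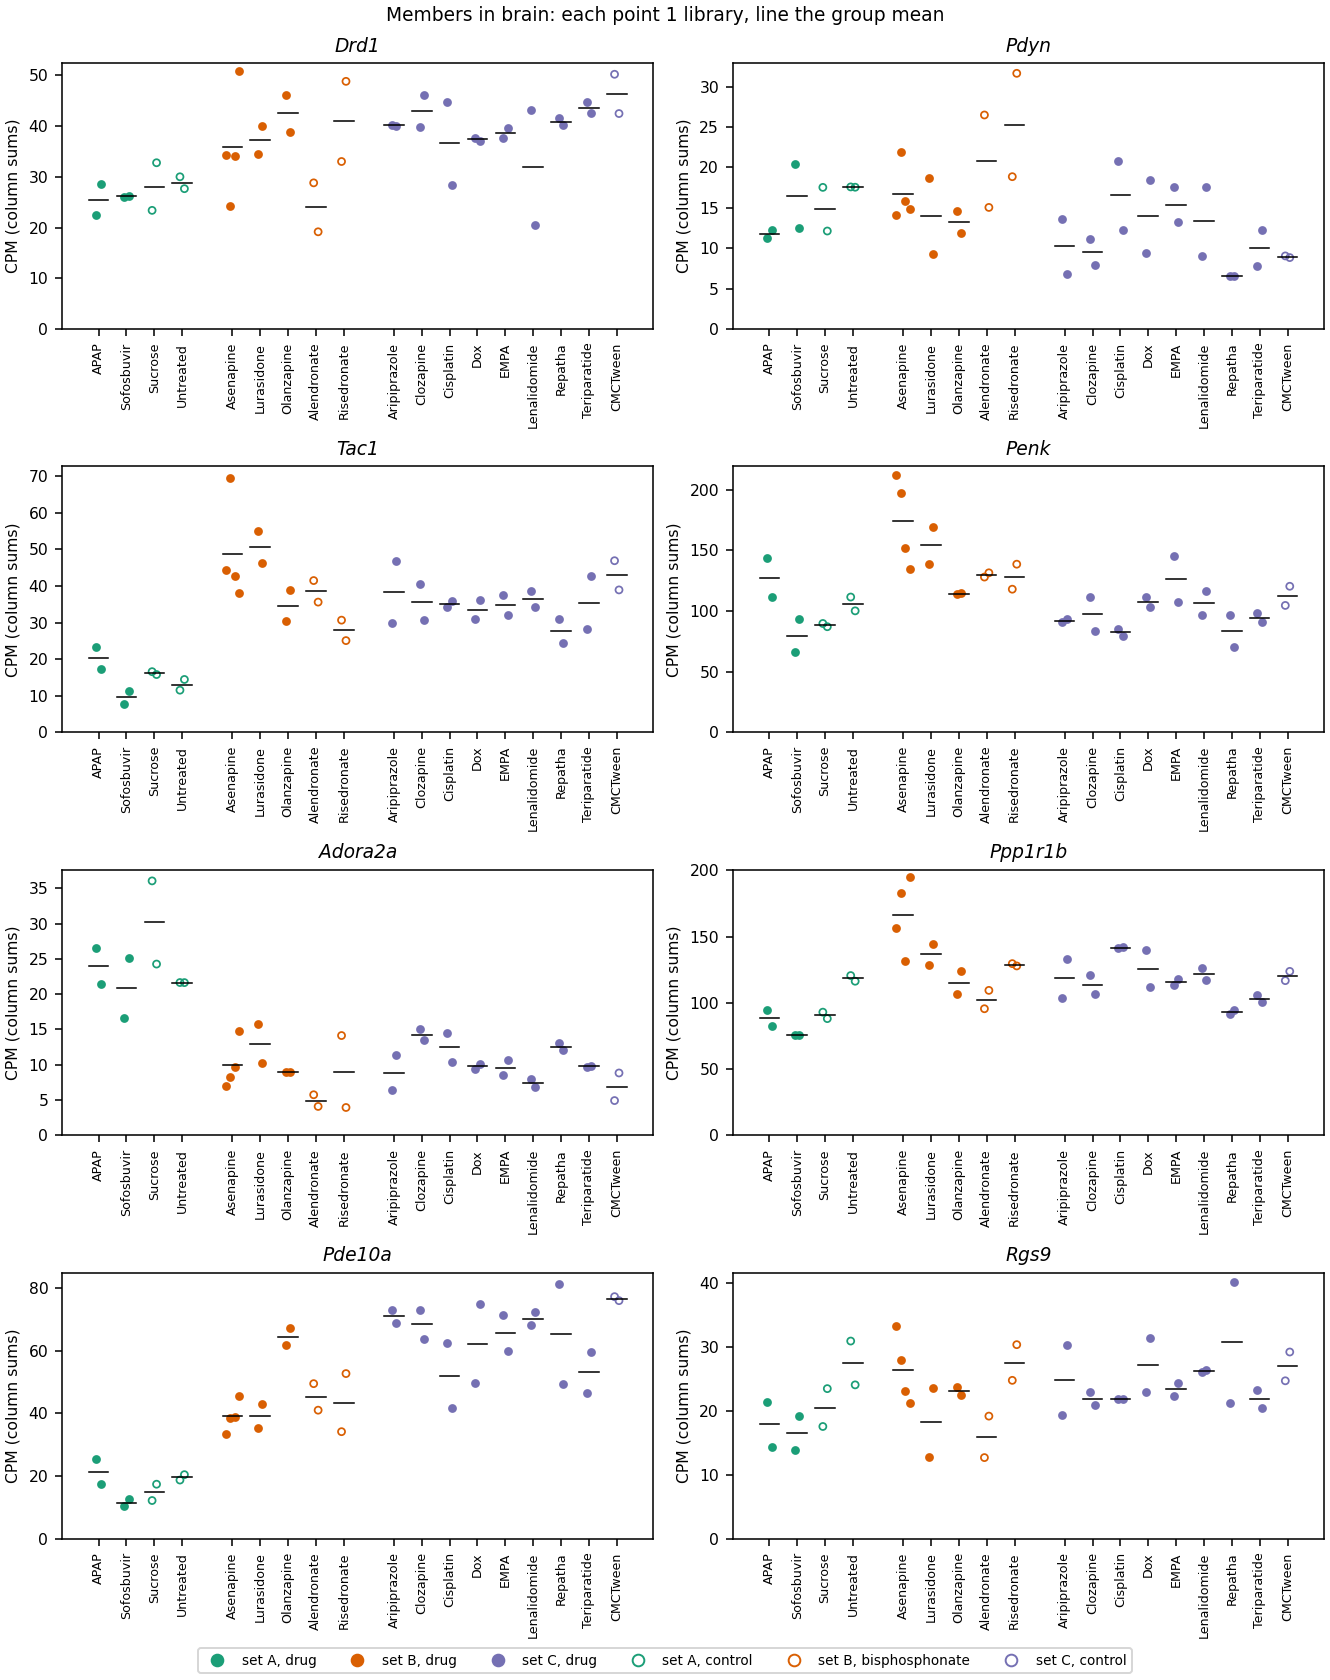
CPM from column sums (vertical axis) of 8 members in each brain library, by treatment and library set; filled points are drugs, open points controls or bisphosphonates, and lines group means. Within set B the highest Penk and Ppp1r1b values are of asenapine libraries, which overlap those of lurasidone. Tac1, Pde10a and Adora2a differ between set A and the other sets.

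The question put to set B was whether antipsychotics move these genes relative to bisphosphonates, which act on bone. Asenapine, an antagonist of dopamine and serotonin receptors, was the only antipsychotic with calls. It had 4 brain libraries, and lurasidone and olanzapine 2 each, so a call was easier to reach with asenapine. Penk had 212, 197, 152 and 134 CPM in the 4 asenapine brains, against 128 and 131 CPM with alendronate and 118 and 138 CPM with risedronate. Of the 4 asenapine libraries, 3 lay above all 4 bisphosphonate libraries, and the last lay within their range. The log2 difference was 0.36 ± 0.12 SE (edgeR, adjusted p = 0.036). Ppp1r1b had 156, 183, 131 and 195 CPM with asenapine, against 95.6 and 109 CPM with alendronate and 129.7 and 128 CPM with risedronate. The groups did not overlap, and the log2 difference was 0.46 ± 0.10 (adjusted p = 0.0018). The bisphosphonates themselves were lower with alendronate than with risedronate, though not past the adjusted threshold (-0.34 ± 0.16, unadjusted p = 0.038, adjusted p = 0.94, 0% of genes called).

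The other 6 tested members did not pass with asenapine. Tac1 came closest, with 44.4, 69.6, 42.6 and 38.1 CPM, against 41.5 and 35.6 CPM with alendronate and 30.6 and 25.1 CPM with risedronate (log2 difference 0.51 ± 0.19, adjusted p = 0.068). Pdyn had the largest negative difference (-0.53 ± 0.28, adjusted p = 0.24), and Drd1 the smallest (0.07 ± 0.22, adjusted p = 0.90). The median over the 8 members was 0.31, against 0.02 over all genes tested. In this comparison 12% of the 10095 genes tested were called, so 2 called members of 8 stand against a common rate of change.

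The Penk call rested on part of the libraries. Leaving out asenapine replicates 1 and 2, the 2 highest, gave 0.12 with an adjusted p of 0.70, and it was also lost without alendronate replicate 1 (0.092) or 2 (0.10), asenapine replicate 1 (0.19) or 2 (0.12) or risedronate replicate 1 (0.21), and with DESeq2 (0.068). The Ppp1r1b call passed in all 15 alternatives run, at adjusted p of 0.00054 to 0.018. Reads from Ppp1r1b and from the antisense gene 1700003D09Rik that overlaps it cannot be told apart if counting ignored strand, and the strand setting is not given in the sources used here. Penk overlaps A830012C17Rik on the opposite strand in the same way.

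Lurasidone and olanzapine changed no member against the bisphosphonates, while 6.43% and 1.58% of all genes passed. With lurasidone, Penk (139 and 169 CPM) and Ppp1r1b (129 and 145 CPM) gave log2 differences of 0.27 ± 0.14 (adjusted p = 0.28) and 0.27 ± 0.13 (adjusted p = 0.23). Tac1, with 55.1 and 46.1 CPM, gave 0.64 ± 0.22 (adjusted p = 0.075). With olanzapine, Penk had 114 and 115 CPM and differed by -0.17 ± 0.16 (adjusted p = 0.70). Ppp1r1b had 107 and 124 CPM, and its difference was under 0.01 in size (± 0.14, adjusted p = 0.998).

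Set directly against olanzapine, asenapine differed for 3 members, in a comparison in which 18.3% of all genes were called. Penk (0.53 ± 0.15, adjusted p = 0.010) and Ppp1r1b (0.46 ± 0.13, adjusted p = 0.0098) were higher with asenapine. Pde10a was lower, at 33.3, 38.6, 39.0 and 45.5 CPM with asenapine, against 61.9 and 67.2 CPM with olanzapine (-0.81 ± 0.21, adjusted p = 0.0047). The groups of Pde10a did not overlap, but the olanzapine values also lay above all 4 bisphosphonate libraries (34.2 to 52.8 CPM). Without olanzapine replicate 1, none of the 3 passed (adjusted p of 0.055 to 0.23), and without replicate 2 Penk and Pde10a did not (0.076 and 0.067). Without asenapine replicates 1 and 2, Penk (0.27) and Pde10a (0.11) did not pass either. Asenapine and lurasidone differed for no member (1.44% of genes called), nor did lurasidone and olanzapine (11.3%), where Pde10a came closest (-0.70 ± 0.25, adjusted p = 0.056).

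**Figure D3:**
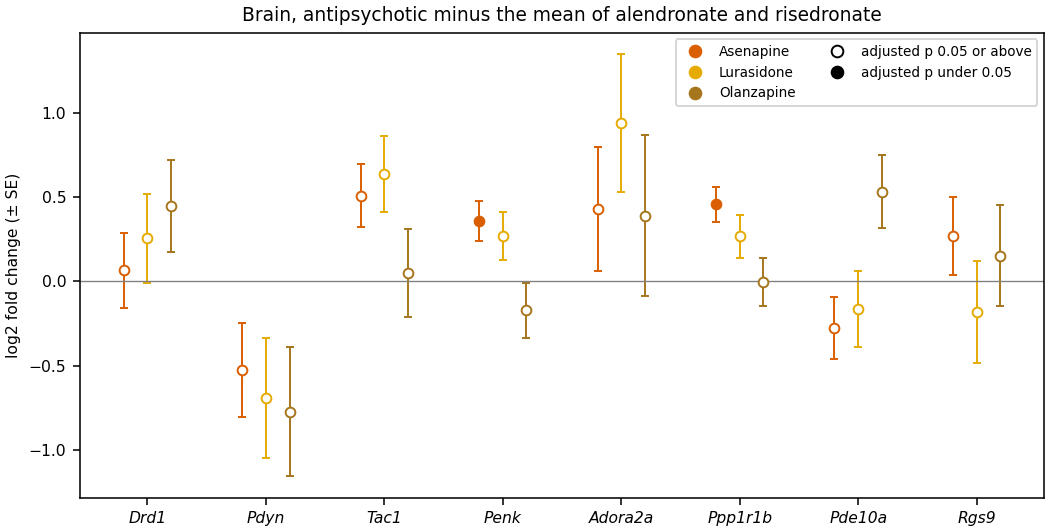
Log2 fold change (± SE, edgeR) in brain of 8 members for each antipsychotic of set B minus the mean of the bisphosphonates; filled points pass an adjusted p of 0.05. Penk (0.36) and Ppp1r1b (0.46) with asenapine are the filled points, and the other 22 are open.

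Of 27 genes between receptor and DARPP-32, all tested, 4 rose and 5 fell with asenapine against the bisphosphonates, and 18 did not pass, where 12% of all genes were called. The cyclic nucleotide phosphodiesterases Pde1b (0.57), Pde2a (0.45) and Pde4b (0.35) rose, as did the protein kinase A subunit gene Prkar1b (0.43). Prkar2b, another subunit (-0.60), Rgs2, a regulator of G protein signals (-0.37), Gnal, the G protein subunit of striatal D1 signalling (-0.36), and Arpp21, a cyclic AMP regulated phosphoprotein gene (-0.34), and Rgs7bp, which binds proteins of the RGS9 family (-0.24), fell. The median of the 27 was -0.02. None of the 6 tested genes of dopamine receptors, synthesis and transport changed. Of 14 tested immediate early genes, Arc (-1.43) and Egr1 (-0.53), both switched on by neuronal activity, fell and none rose, a share near that of all genes.

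Some markers of brain parts and cell types were called in the same comparison, where 12% of all genes were, and the shares of the striatal, cortex and astrocyte lists lay near that. Of 25 striatal projection neuron genes, 21 were tested, of which Pde1b rose and Arpp21 and Gnal fell. Their summed level was 1609 to 1740 CPM in asenapine brains, against 1656 to 1724 CPM with bisphosphonates. The cortex list summed to 422 to 531 CPM with asenapine, against 364 to 427 CPM, and of its 8 genes Slc17a7, a vesicular glutamate transporter, rose (0.93). Among 9 tested other neuropeptides Cartpt (1.03), Npy (0.47), Sst (0.43) and Cck (0.34) rose and Crh (-0.81) fell, with a summed level of 626 to 781 CPM, against 501 to 578 CPM. Of the cerebellum list, which summed to 716 to 910 CPM with asenapine, against 595 to 778 CPM, Cbln1 (0.63) and Cbln3 (0.58) rose among 6 tested. Of the hippocampus list, at 39.2 to 49.9 CPM, against 48.4 to 63.3 CPM, Prox1 (-2.04) fell among 4 tested. The 6 astrocyte genes summed to 1649 to 1997 CPM, against 2191 to 2263 CPM, and Slc1a2 (-0.55) fell. The neuropeptide and astrocyte sums did not overlap between the groups, and the other sums did. In tissue RNA, fewer cells of a type and less RNA per cell cannot be told apart, and the part of such shifts in the Penk and Ppp1r1b values was not tested.

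As a class, the 3 antipsychotics of set B changed none of the 8 members against the bisphosphonates, while 2.83% of all genes passed. The log2 differences ran from -0.66 ± 0.26 for Pdyn (adjusted p = 0.17) to 0.59 ± 0.34 for Adora2a (adjusted p = 0.42), with Ppp1r1b at 0.24 ± 0.10 (adjusted p = 0.19). Pdyn, the dynorphin gene, had 14.1 to 21.9 CPM with asenapine, 18.7 and 9.23 CPM with lurasidone and 14.6 and 11.9 CPM with olanzapine, against 15.1 to 31.7 CPM with the bisphosphonates, and the groups overlapped. At an unadjusted p under 0.05, 3 of the 8 passed, and DESeq2 called 0 past the adjusted threshold. Of all 10095 genes, 939 passed the unadjusted threshold with DESeq2 and 1453 with column sums in edgeR. Arc (-0.94) and Egr1 (-0.58) were lower in the class as well, and the other immediate early genes are not given for it.

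In set C, aripiprazole and clozapine as a class changed 0 of 8 members against CMCTween, where 0.218% of all genes were called. Adora2a had 6.44 and 11.3 CPM with aripiprazole and 15.0 and 13.5 CPM with clozapine, against 4.94 and 8.84 CPM with CMCTween (0.89 ± 0.38, adjusted p = 0.43). Penk had 90.9 and 93.0 CPM with aripiprazole and 111 and 83.5 CPM with clozapine, against 104 and 120.3 CPM with CMCTween (-0.07 ± 0.14, adjusted p = 0.93). Ppp1r1b gave 0.12 ± 0.12 (adjusted p = 0.80). Arc fell by 1.41 on the log2 scale here too, and the other immediate early genes are not given for this comparison. Column sums moved the median of all genes in this comparison by -0.17. The log2 differences are from TMM scaling and do not carry that shift, while the printed CPM do. The set B difference minus the set C difference was called for 0 of 8 members, with 0.0396% of all genes called. Its largest value was -0.97 ± 0.47 for Pdyn (adjusted p = 0.68), so a difference between the sets was not shown.

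Singly, the 8 drugs of set C changed no member in brain, with 0% (lenalidomide), 0.0198% (EMPA), 0.0396% (teriparatide), 0.0594% (repatha), 0.0892% (aripiprazole), 0.109% (clozapine), 0.376% (Dox) and 0.981% (cisplatin) of all genes called. At an unadjusted p under 0.05 cisplatin passed for 4 members, Dox for 2, and clozapine and repatha for 1 each. Of all 10095 genes, 557 (cisplatin), 500 (Dox), 271 (clozapine) and 281 (repatha) passed that unadjusted threshold with DESeq2. With column sums in edgeR these were 1374, 1814, 1205 and 1676 genes. The closest was Adora2a with clozapine (1.22 ± 0.40, adjusted p = 0.32). Adora2a was above CMCTween in point estimate with all 8 drugs (0.13 to 1.22), which share the same 2 control libraries. Cisplatin gave Ppp1r1b 141 and 142 CPM, against 117 and 124 CPM with CMCTween (0.37 ± 0.14, adjusted p = 0.24).

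In set A, APAP changed 0 of 8 members in brain against Untreated and Sucrose, with 4% of all genes called. Penk came closest, with 144 and 111 CPM after APAP, against 111 and 100.03 CPM in Untreated and 89.6 and 87.0 CPM in Sucrose brains (0.39 ± 0.14, adjusted p = 0.097). Sofosbuvir changed none either (0.228% of genes), its lowest adjusted p being 0.57 for Ppp1r1b (75.8 and 75.9 CPM, -0.34 ± 0.12). Over the 13 single drugs, 2 of 104 member and drug pairs passed in brain, both with asenapine, while 17 had an unadjusted p under 0.05. With DESeq2, 191 (sofosbuvir) to 1662 (asenapine) of all 10095 genes passed that unadjusted threshold.

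In pituitary, 4 members passed the filter on low counts. Rgs9 lay at 54.5 to 142 CPM over the 36 libraries, Pde10a at 11.9 to 82.1 CPM, Pdyn at 2.13 to 31.8 CPM and Penk at 3.59 to 18.4 CPM. Drd1, Tac1 and Adora2a had medians of 0 CPM there, and Ppp1r1b 2.89 CPM. None of the 13 single drugs changed any of the 4 in edgeR or DESeq2, where the share of all genes called was 0% (teriparatide), 0.00942% (sofosbuvir, EMPA and lenalidomide), 0.0188% (Dox), 0.066% (repatha), 0.0848% (aripiprazole), 0.311% (clozapine), 0.961% (lurasidone), 1.32% (olanzapine), 1.33% (cisplatin), 1.81% (APAP) and 3.81% (asenapine), and 7 of 52 tests had an unadjusted p under 0.05. With DESeq2, 190 (sofosbuvir) to 1140 (asenapine) of all 10611 genes passed that unadjusted threshold. Rgs9 had 87.0 and 133 CPM with asenapine, 66.5 and 74.6 CPM with lurasidone and 142 and 102 CPM with olanzapine, against 65.1 and 97.0 CPM with alendronate and 77.3 and 76.5 CPM with risedronate. The groups overlapped, and the class difference was 0.31 ± 0.18 (adjusted p = 0.45), with 1.29% of all genes called. The class of set C gave values from -0.79 ± 0.36 for Penk (adjusted p = 0.53) to 0.13 ± 0.34 for Pde10a, with 0.198% called.

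Rgs9 was called in 2 pituitary comparisons outside those. It was lower in Sucrose, at 56.7 and 89.98 CPM, than in Untreated pituitaries, at 129 and 124 CPM (-0.80 ± 0.21, adjusted p = 0.042, 1.21% of genes called). It was lower with lurasidone than with olanzapine (-0.89 ± 0.27, adjusted p = 0.0497, 4.73% called). Leaving out any of the 4 libraries compared ended either call, at adjusted p of 0.057 to 0.60 and 0.057 to 0.47. The Sucrose call was also lost with DESeq2 (0.17), with column sums (0.059) and with the replicate number as a block (0.11), and the lurasidone call with column sums (0.083). Beside these values, the 6 corticotroph and melanotroph markers, Pomc among them, summed to 42845 and 49005 CPM in Sucrose, against 33447 and 41533 CPM in Untreated pituitaries. They summed to 13209 and 40181 CPM with lurasidone, against 21349 and 21730 CPM with olanzapine. Whether the share of pituitary lobes bears on Rgs9 was not tested.

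Outside brain and pituitary, 1 to 7 members passed the filter in each of the other 22 tissues, 54 member and tissue pairs. Over the 13 single drugs 39 of 702 tests were called, 15 higher and 24 lower, against 3.02% of all gene tests. Ppp1r1b accounted for 16 and Penk for 14 of them, Adora2a for 4, Rgs9 and Tac1 for 2 each and Drd1 for 1, while Pdyn and Pde10a had none. Lenalidomide had none.

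Ppp1r1b fell after 2 hours of APAP in 6 of the 11 tissues where it was tested and rose in none, in a comparison in which 10.6% of all gene tests were called. In jejunum it had 116 and 126 CPM after APAP, against 324 and 314 CPM in Untreated and 288 and 291 CPM in Sucrose mice. In ileum it had 179 and 185 CPM, against 316 and 343 CPM and 296 and 275 CPM. Both tissues were without overlap, at log2 differences of -1.20 ± 0.20 (adjusted p = 0.0002) and -0.65 ± 0.15 (adjusted p = 0.0026), where 22.1% and 16% of all genes were called.

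Colon followed with 220.1 and 224 CPM after APAP, against 293 and 316 CPM in Untreated and 258 and 298 CPM in Sucrose mice (-0.39 ± 0.11, adjusted p = 0.018, 7.66% of genes called). Stomach had 24.6 and 25.5 CPM, against 44.5 and 45.1 CPM and 44.0 and 48.6 CPM (-0.93 ± 0.25, adjusted p = 0.014, 9.64% called). The fall was also called in 2 glands. ParotidG had 50.8 and 34.6 CPM, against 111 and 89.9 CPM and 102 and 118 CPM (-0.96 ± 0.24, adjusted p = 0.010, 6.69% called). ThyroidG had 216 and 187 CPM, against 318 and 304 CPM and 348 and 386 CPM (-0.72 ± 0.19, adjusted p = 0.036, 2.89% called).

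In all 6 tissues the APAP libraries lay below all 4 control libraries. The jejunum call held without any 1 library, while the ThyroidG call was lost whichever of the 6 libraries was left out (adjusted p of 0.057 to 0.32). Colon was lost without APAP replicate 1 or 2 or Sucrose replicate 2 (0.22, 0.12 and 0.095), stomach without APAP replicate 1 or 2 (0.14 and 0.12), ileum without APAP replicate 1 (0.073) and ParotidG without APAP replicate 2 (0.29). In brain the same contrast gave Ppp1r1b 94.8 and 82.7 CPM, against 121 and 116 CPM in Untreated and 93.0 and 88.2 CPM in Sucrose mice (-0.23 ± 0.13, adjusted p = 0.37).

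**Figure D4:**
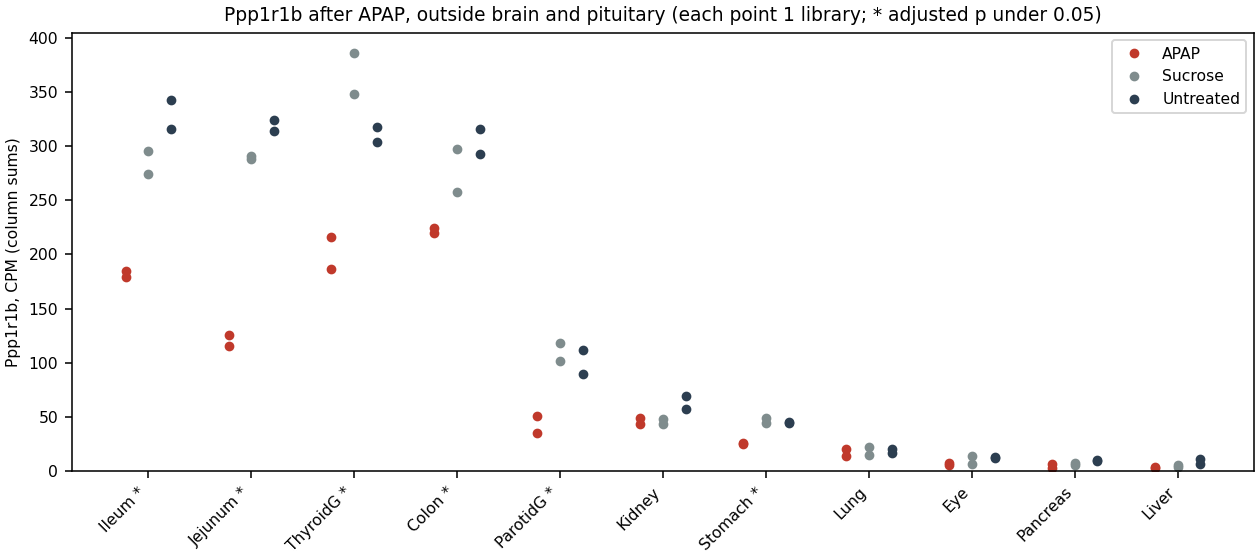
Ppp1r1b in CPM from column sums (vertical axis) in APAP, Sucrose and Untreated libraries of the 11 tissues outside brain in which it was tested; each point is 1 library and an asterisk marks an adjusted p under 0.05. APAP points lie below all control points in the 6 marked tissues.

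With cisplatin, which crosslinks DNA, Ppp1r1b fell in 4 tissues and rose in 2, where 12.1% of all gene tests were called. Ileum had 21.8 and 18.5 CPM with cisplatin, against 306 and 301 CPM with CMCTween. This was the largest change of any member (-3.99 ± 0.24, adjusted p = 8.2e-14, 29.1% of genes called). Colon had 154 and 174 CPM, against 299.5 and 306 CPM (-0.94 ± 0.13, adjusted p = 1.7e-06, 10.5% called). Jejunum had 82.5 and 181 CPM, against 266 and 274 CPM (-1.06 ± 0.22, adjusted p = 0.0041, 5.68% called), and kidney 17.1 and 28.1 CPM, against 43.2 and 46.4 CPM (-1.10 ± 0.34, adjusted p = 0.013, 22.9% called). None of the 4 overlapped.

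In liver Ppp1r1b rose with cisplatin, at 25.4 and 25.1 CPM, against 8.43 and 2.42 CPM (2.28 ± 0.61, adjusted p = 0.013, 10% called), and in stomach, at 70.02 and 62.6 CPM, against 29.1 and 34.0 CPM (0.98 ± 0.28, adjusted p = 0.039, 3.79% called). Of the 11 tissues tested, liver had the lowest average Ppp1r1b level (log2 CPM 3.25), so its call rests on low counts. The ileum and colon calls passed in all 7 alternatives. Without CMCTween replicate 4 or cisplatin replicate 1 those of jejunum (0.0503 and 0.18), kidney (0.083 and 0.27), liver (0.17 and 0.071) and stomach (0.18 and 0.28) were lost, and stomach also without CMCTween replicate 3 (0.22) or cisplatin replicate 3 (0.06). Levels of gut cell types were not examined, and their part in these values was not tested. Lurasidone gave lower Ppp1r1b in colon (-0.41) and ileum (-0.58) than the bisphosphonates, where 5.44% and 2.18% of genes were called, and both were lost without either lurasidone library (0.073 to 0.34), without alendronate replicate 2 (0.081 and 0.054) and, in ileum, without alendronate replicate 1 (0.089) or risedronate replicate 2 (0.12). The bisphosphonates differed between themselves by nearly as much in colon, with alendronate lower than risedronate (-0.38 ± 0.12, adjusted p = 0.040, 9.38% of genes called), and by -0.37 ± 0.16 in ileum (adjusted p = 0.16, 8.59% called). Aripiprazole in lung (2.14) and Dox in ParotidG (0.94) were higher than CMCTween, at low counts in the first, and each was lost without CMCTween replicate 3 or 4 (0.097 to 0.34) and without 1 drug library (aripiprazole replicate 4, 0.27, and Dox replicate 3, 0.56). The first was also lost against the other groups of set C (0.51) and the second with column sums (0.060), and 9.57% and 2.84% of genes were called in these comparisons.

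In AdrenalG, where the medulla makes enkephalin, Penk was lower than in CMCTween with 7 of the 8 drugs of set C (log2 -1.17 to -2.38, adjusted p = 5.1e-05 to 0.019), in comparisons in which 3.66% (aripiprazole), 4.48% (clozapine), 10.5% (cisplatin), 3.46% (Dox), 5.02% (EMPA), 6.09% (repatha) and 7.53% (teriparatide) of all genes were called. The 7 drugs had 9.92 to 42.1 CPM and lenalidomide 100.5 and 62.9 CPM, against 48.5 and 95.2 CPM with CMCTween. A wider reference took the mean of the other groups of set C, with CMCTween among them and the antipsychotics left out. Against it 1 of the 7 calls, cisplatin, passed, and aripiprazole (0.08), clozapine (0.19) and repatha (0.03) turned positive. Without CMCTween replicate 4, aripiprazole (0.37), clozapine (0.43), repatha (0.31) and EMPA (0.077) were lost. Aripiprazole was also lost without its replicate 4 (0.45), clozapine without its replicate 3 (0.11) or 4 (0.071) and repatha without its replicate 1 (0.14) or 3 (0.065). The set B class difference minus the set C class difference of Penk was called here too, where 2.46% of genes were (1.25 ± 0.35, adjusted p = 0.046), and was -0.10 against the other groups of set C. Teriparatide, at 9.92 and 16.2 CPM, and cisplatin, at 21.3 and 11.8 CPM, were the lowest.

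Th, Dbh, Pnmt, Chga and Chgb, 5 markers of the medulla's chromaffin cells, were chosen after the Penk values were seen and summed beside them. The sum was 4363 to 7043 CPM with the other 7 drugs of set C and 2225 and 4810 CPM with lenalidomide, against 3908 and 2722 CPM with CMCTween. The part of medulla content in the Penk values was not tested.

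In skin, lurasidone and olanzapine had higher Penk than the bisphosphonates, in comparisons in which 15.9% and 15.6% of genes were called. Lurasidone had 55.0 and 68.3 CPM and olanzapine 65.9 and 38.8 CPM, against 15.7 and 16.01 CPM with alendronate and 26.8 and 21.4 CPM with risedronate. The log2 differences were 1.75 ± 0.37 (adjusted p = 0.0013) and 1.56 ± 0.38 (adjusted p = 0.0060), and asenapine (35.01 and 21.97 CPM) was not called. The lurasidone call passed in all 8 alternatives, and the olanzapine call was lost without olanzapine replicate 1 (0.22). Dox had 11.7 and 13.1 CPM, against 29.2 and 85.2 CPM with CMCTween (-2.22 ± 0.45, adjusted p = 0.0025, 10.6% of genes called), a call lost without CMCTween replicate 4 (0.081). Skin Penk also differed between control groups, at 26.8 and 30.4 CPM in Sucrose, against 84.4 and 63.3 CPM in Untreated mice (-1.44 ± 0.35, adjusted p = 0.0095, 11.9% called).

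**Figure D5:**
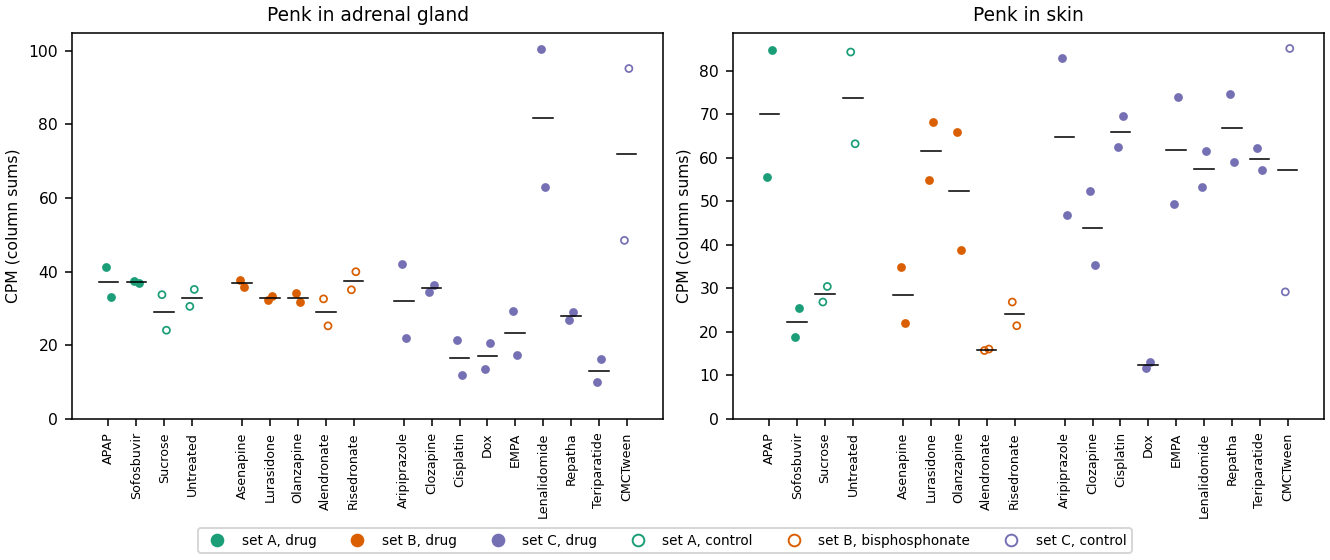
Penk in CPM from column sums (vertical axis) in each adrenal (left) and skin (right) library by treatment and library set; filled points are drugs, open points controls or bisphosphonates, and lines group means. In the adrenal gland CMCTween and lenalidomide lie above the other groups of set C. In skin lurasidone and olanzapine lie above the bisphosphonates and dox below its control.

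Penk was also called in eye, muscle and ileum. In eye it had 158 and 136 CPM after APAP, against 72.9 and 93.5 CPM in Untreated and 85.3 and 77.5 CPM in Sucrose mice (0.91 ± 0.16, adjusted p = 0.0024). Only 0.811% of eye genes were called after APAP, and the Penk call was lost without APAP replicate 1 (0.068). Cisplatin gave 137 and 124 CPM in eye, against 71.9 and 100.1 CPM with CMCTween (0.72 ± 0.19, adjusted p = 0.023, 4.36% called). In SkMuscle it gave 6.28 and 2.99 CPM, against 15.999 and 13.1 CPM (-1.72 ± 0.42, adjusted p = 0.0013, 36.2% called), and this call passed in all 7 alternatives. In ileum it gave 16.3 and 24.2 CPM, against 5.82 and 8.77 CPM (1.39 ± 0.50, adjusted p = 0.033). The cisplatin calls in eye and ileum were each lost without CMCTween replicate 3 or 4 (0.072 to 0.20), in eye without cisplatin replicate 1 (0.37) and in ileum without cisplatin replicate 3 (0.30) and with no filter on low counts (0.067).

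Adora2a, which on immune cells restrains their activation, rose in 4 tests. In thymus it had 60.3 and 47.4 CPM after APAP, against 12.7 and 14.9 CPM in Untreated and 40.6 and 30.3 CPM in Sucrose mice (1.04 ± 0.25, adjusted p = 0.0017, 25.4% of genes called). APAP lay above both controls, which themselves differed (1.26 for Sucrose minus Untreated, adjusted p = 0.0013, 17.8% called). In WAT it had 40.8 and 48.3 CPM after APAP, against 24.1 and 20.4 CPM and 20.1 and 30.4 CPM (0.91 ± 0.30, adjusted p = 0.034, 16.4% called). Olanzapine gave 14.9 and 10.9 CPM in WAT, against 2.41 and 6.76 CPM with alendronate and 4.50 and 2.93 CPM with risedronate (1.82 ± 0.45, adjusted p = 0.038, 1.97% called). Asenapine gave 18.6 and 17.7 CPM in spleen, against 8.37 and 11.4 CPM and 4.71 and 4.52 CPM (1.45 ± 0.44, adjusted p = 0.046, 5.31% called).

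None of the 4 groups overlapped their controls or bisphosphonates, but most alternatives ended the calls outside thymus. The spleen call was lost in all 8 alternatives (adjusted p of 0.053 to 0.27), leaving out each library among them. The WAT calls were lost in 7 of 8 alternatives after APAP and in 6 of 8 with olanzapine, with column sums (0.19 and 0.26) and without either drug library among them, and that in thymus without APAP replicate 1 (0.089). Drd1 in WAT followed Adora2a after APAP, at 23.3 and 21.0 CPM, against 5.19 and 4.94 CPM in Untreated and 15.9 and 4.47 CPM in Sucrose mice (1.64 ± 0.53, adjusted p = 0.034), and was lost in 6 of 8 alternatives (0.14 with column sums).

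The remaining 4 calls concern Rgs9 and Tac1. In eye Rgs9 had 449 and 584 CPM with Dox and 509 and 550.3 CPM with EMPA, against 822 and 892 CPM with CMCTween (-0.52 ± 0.14, adjusted p = 0.036, and -0.49 ± 0.14, adjusted p = 0.029), where 2.18% and 5.92% of genes were called. Both calls were lost when any of the libraries compared was left out, and against the other groups of set C (0.096 and 0.17). Tac1 in eye had 4.56 and 7.37 CPM with cisplatin, against 17.98 and 19.3 CPM with CMCTween (-1.65 ± 0.46, adjusted p = 0.034), lost against the other groups of set C (0.15) and without CMCTween replicate 3 (0.083) or 4 (0.20) or cisplatin replicate 1 (0.51). In jejunum Tac1 had 11.2, 14.9, 29.4 and 30.2 CPM with sofosbuvir, against 13.1 and 10.99 CPM in Untreated and 7.83 and 11.7 CPM in Sucrose mice (1.01 ± 0.29, adjusted p = 0.021, 13% called). The highest values are those of replicates 3 and 4, and without them it was 0.37 with an adjusted p of 0.55. Leaving out replicate 3 or 4 alone, Sucrose replicate 1 or Untreated replicate 4 also ended the call (0.10, 0.096, 0.0999 and 0.053).

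Comparisons outside the single drugs held further calls. Pde10a in AdrenalG had 62.0 and 23.2 CPM in Sucrose, against 11.9 and 7.53 CPM in Untreated mice (2.02 ± 0.51, adjusted p = 0.0070, 14.5% of genes called). Penk in ParotidG had 2.12 and 3.81 CPM in Sucrose, against 10.4 and 10.9 CPM in Untreated mice (-2.12 ± 0.51, adjusted p = 0.0047, 14.9% called). Neither pair of groups overlapped. Ppp1r1b was higher with asenapine than with olanzapine in stomach, at 54.0 and 55.3 CPM, against 28.5 and 22.1 CPM (1.12 ± 0.33, adjusted p = 0.017, 16.2% called). It was higher with asenapine than with lurasidone in ileum (0.60 ± 0.17, adjusted p = 0.049, 3.23% called), a call lost with column sums (0.064). The classes were called for Penk, in skin for set B (1.30 ± 0.31, adjusted p = 0.0047, 15.3% called) and in AdrenalG for set C (-1.22 ± 0.25, adjusted p = 0.0024, 6.54% called), the second lost against the other groups of set C (0.81).

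Among themselves the members did not move as a block in brain. Over 38 libraries, the deviations of log2(CPM + 1) from the group mean correlated between members at a Pearson r of -0.40 to 0.39, with a median of 0.018 over 28 pairs, of which 15 were positive. All points share a library, its depth and its dissection, and counts of Pdyn, Adora2a and Rgs9 are low, so these values describe the libraries only. Of 7435 other genes above a mean of 10 CPM, Cmtm4 (r = 0.83), Prkcb (0.79), Rab2a (0.78), Trak1 (0.76), Coprs (0.75), Higd1a (0.75), Slc1a3 (0.75) and Magee1 (0.73) followed the mean of the 8 members most closely. None of these is on the striatal lists, whose closest gene, Foxp1, a transcription factor of striatal neurons, ranked 69 with an r of 0.64.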

How the data were processed

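The authors deposited whole-number read counts per gene symbol for each tissue, not normalized, from a 3′ mRNA library kit per the labels' protocols. Per the submitters' processing notes, bcl2fastq 2.17, TopHat2 2.1.1, HTSeq 0.9.1 and the mm10 build were used. The gene annotation, strand setting and treatment of multiply mapped reads are not given in the sources used here. A 3′ count follows the annotated transcript end, so a gene whose end is annotated elsewhere can be missed. All columns could be matched to a sample.

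Each tissue was fitted alone, with its 18 treatment groups in 1 model (edgeR 4.0.16 in R 4.3.3, filterByExpr with a minimum count of 10, TMM scaling, quasi-likelihood F test, Benjamini-Hochberg adjustment over all genes tested, threshold 0.05). Each SE was taken from the fold change and its F value (the log2 size over the root of F). Printed CPM are scaled to the column sum, so they can differ in ratio from a fold change. DESeq2 1.42.0 was an alternative. Others were column sums, no filter, only the libraries of the set, the other groups of set C as reference, a replicate block and leaving out each library. That reference was the mean of CMCTween and the drugs of set C other than the antipsychotics and the drug tested. The script was tested on simulated data for asenapine minus bisphosphonates in brain (9749 genes). It recovered 87% of 100 genes changed by 1 on the log2 scale and 100% of 100 changed by 2, with 9 false calls. The simulation gave every gene the same dispersion, held no set differences and changed only the better counted genes. It does not measure power for changes under 1 or for members with low counts. Nor does it for the other drugs in brain, which had 2 libraries each where asenapine had 4.

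All 9 genes were followed in every comparison, and the text gives those that passed or came closest. From the other lists, up to 4 called genes per direction were named by size, and Rgs7bp was added after its value was seen. Genes and lists were chosen with earlier results of these data known, and the library sets come from those results. The medulla markers, the version without sofosbuvir replicates 3 and 4 and some versions of the class difference were chosen after seeing the data. Replicate numbers were not used to pair the libraries in the main fits. Depth per library limits genes under about 10 counts, and the limit given for a count of 0 (3 counts) covers counting error only.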

Additional observations from a re-analysis of the deposited data

Results flagged for a closer look

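The difference between the antipsychotic classes was tested for each counted member in each of the 24 tissues, and 1 result passed. For Penk in AdrenalG, the set B difference (antipsychotics minus bisphosphonates) exceeded the set C difference (antipsychotics minus CMCTween) by 1.25 ± 0.35 on the log2 scale (edgeR, adjusted p = 0.046), where 2.46% of all genes were called. With column sums the value was 1.17 (adjusted p = 0.063). With the other groups of set C as reference, CMCTween among them and the antipsychotics left out, it was -0.10 (adjusted p = 0.94). The CMCTween libraries enter this result, as they enter the 7 lower Penk calls of set C.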

How the results depend on the processing

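The classes changed 0 members in brain and pituitary in every version run, while the count of all genes called moved. For the set B class in brain it was 286, against 181 with column sums, 144 with only the libraries of the set and 99 to 323 leaving out 1 library each. For the set C class in brain it was 22, against 98 with column sums, 67 with no filter on low counts, 42 with only its own libraries and 2 to 13 leaving out 1 library. The set B minus set C difference called 4 genes, against 12 with DESeq2, 9 with column sums, 24 with no filter, 72 with the other groups of set C as reference, 11 without asenapine replicates 1 and 2, 21 without replicates 3 and 4, and 1 to 9 leaving out 1 library. In pituitary the set B class called 137 genes, against 90 with DESeq2 and 37 to 108 leaving out 1 library. The set C class called 21, against 77 with no filter, 11 with only its own libraries, 54 with the other groups of set C as reference and 3 to 12 leaving out 1 library. The causes were not tested.

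Over single drugs, 2 member calls in brain became 1 with DESeq2 and 1 without asenapine replicates 1 and 2, and 1 to 3 leaving out 1 library. In pituitary 0 calls became 1 with no filter. In the other 22 tissues 39 calls became 42 with column sums (34 shared), 54 with no filter (36 shared), 43 with other references (29 shared) and 38 without sofosbuvir replicates 3 and 4 (38 shared). The tissue differences called in Untreated mice numbered 178, and 171 to 173 leaving out a brain library. Penk in AdrenalG turned sign with the other groups of set C as reference, for aripiprazole (0.077), clozapine (0.19), repatha (0.028), the set C class (0.13) and the class difference (-0.10). The median correlation between members (0.018) was 0.015 with a pseudocount of 5.

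Within a tissue, same-numbered libraries of different treatments had a median correlation of 0.0066 in brain and 0.0044 in pituitary. In set A alone the medians were 0.022 and 0.046, and the lowest values 0.0091 and 0.022. Whether a number stands for the same mouse over tissues was not tested. With the replicate number as a block, the set B class in brain called 336 genes, the set C class 28, the class difference 4 and the single drugs 2 members. In pituitary the block gave 136 and 22 genes. Depth limits Adora2a and Pdyn, which had low counts in sets B and C. Drd2 did not pass the filter, and the cause of its few counts was not tested.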
